A study of Mus musculus with 7 samples.

Results

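The genes described here are 8 genes of enzymes that remove methyl groups from lysine 9 of histone H3 (H3K9): Kdm4a, Kdm4b, Kdm4c, Kdm4d, Kdm3a, Kdm3b, Kdm1a and Phf8. They were taken by symbol from a table of 24319 genes, in which all 8 have a row, and all 8 passed the filter on low values. The samples were mouse embryos from somatic cell nuclear transfer (SCNT), in which a cumulus cell, one of the follicle cells attached to the oocyte, was injected into an enucleated oocyte that was then activated. Strain and genotype were given as B6D2F1 and wild type for every library, and each library came from a pool of 50 to 100 embryos labelled 2-cell.

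In the FOC+K group (2 libraries) the recipient oocytes were fresh, and in the CROC+K group (3 libraries) they had been cryopreserved by vitrification and warmed. The CROC+K+M group (2 libraries) also used cryopreserved oocytes, and its embryos were treated with 10 µM melatonin, an indole hormone. All 3 groups received Kdm4a mRNA by injection, so Kdm4a is the sum of injected and endogenous RNA and no library shows it without injection. The labels do not give the dose or the transcript ends of the injected mRNA. They call the libraries biological replicates without saying what was separate between them, so p-values measure the spread between these libraries.

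Methylation of H3K9 marks heterochromatin, in which genes are kept silent. After SCNT the somatic nucleus brings this mark into the oocyte, where it is known as a barrier to the activation of the embryonic genome, and injection of mRNA of a Kdm4 enzyme is an established way to lower it. The Kdm4 proteins act on trimethylated and dimethylated H3K9, the Kdm3 proteins on the dimethylated and monomethylated forms, and both families use a JmjC domain that needs iron and 2-oxoglutarate. Kdm1a (LSD1) is a flavin-dependent enzyme known first for H3K4, and Phf8 is an X-linked JmjC protein that acts on dimethylated H3K9.

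Since Kdm4a RNA was far more abundant than that of its relatives, the coding sequences of the Kdm4 genes were compared first, to see how much of Kdm4a could be counted under another gene. In the mouse transcripts of GENCODE M21 (build GRCm38) the Kdm4a, Kdm4b, Kdm4c and Kdm4d coding sequences hold 3195, 3261, 3165 and 1533 bases with the stop codon. The best local alignment of Kdm4a with Kdm4b covered 962 aligned bases at 76.3% identity, that with Kdm4c 1008 bases at 74.8%, and that with Kdm4d 939 bases at 72.1%. All of these lay between bases 24 and 1047 of the Kdm4a coding sequence. The longest runs that Kdm4a shares without a mismatch were 20 bases with Kdm4b, 25 with Kdm4c and 23 with Kdm4d. They are printed below in capitals within windows of 60 coding bases, with positions counted from the A of the start codon. Windows with the fewest mismatches were not searched for, so other places may be harder to tell apart.

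Kdm4a and Kdm4b, with 15 mismatches in the window, are shown from base 920 of Kdm4a and base 923 of Kdm4b.
Kdm4a: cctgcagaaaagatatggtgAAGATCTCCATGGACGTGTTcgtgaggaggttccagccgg
Kdm4b: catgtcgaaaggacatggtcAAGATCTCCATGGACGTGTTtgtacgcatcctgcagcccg
Kdm4a and Kdm4c, with 9 mismatches, are shown from base 729 of Kdm4a and base 735 of Kdm4c.
Kdm4a: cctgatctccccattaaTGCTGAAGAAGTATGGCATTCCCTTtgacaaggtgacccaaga
Kdm4c: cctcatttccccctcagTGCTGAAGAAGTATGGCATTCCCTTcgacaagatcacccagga
Kdm4a and Kdm4d, with 8 mismatches, are shown from base 814 of Kdm4a and base 817 of Kdm4d.
Kdm4a: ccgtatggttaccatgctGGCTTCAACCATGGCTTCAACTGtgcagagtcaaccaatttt
Kdm4d: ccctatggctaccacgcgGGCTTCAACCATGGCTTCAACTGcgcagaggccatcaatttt

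Of the 3146 windows of 50 bases in the Kdm4a coding sequence, 0 occurred without a mismatch in an annotated transcript of Kdm4b, Kdm4c or Kdm4d. Of the 3171 windows of 25 bases, 1 occurred in Kdm4c and 0 in Kdm4b or Kdm4d. The sequencing read length is not given in the sources used here, and the sequence of the injected mRNA was taken to be that of the mouse gene.

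Levels are in FPKM, the fragments of a gene divided by its transcript length in kilobases and by the library's mapped fragments in units of 1000000, so levels of different genes can be compared per length. In each library the FPKM times length of 1903 genes with a single transcript had a most frequent low value. It was shared within a band by 50 to 136 of these genes. The value was sought only within a range set beforehand, so a step outside that range could not be found. The scaling between libraries is not given, and division by each library's own mapped fragments is assumed here. If that low value is 1 fragment, which was not tested, the libraries held 3.86 to 6.00 times 1000000 fragments. Kdm4d, the lowest of the 8 genes, then rested on 5.02 and 6.02 fragments in FOC+K, 27.1, 21.2 and 0 in CROC+K and 0 and 12.0 in CROC+K+M. On the same basis Kdm4b rested on at most 47.0 fragments in any library, and Kdm4a on 7231 to 93977 depending on library and transcript length. Oocyte genes (15 of 15 at an FPKM of at least 1) were present in every library. CROC+K+M replicate 1 stood apart from its label: trophectoderm genes, which mark the outer cells of the blastocyst, summed to 2073 FPKM in it against 69.2 to 160.1 in the other 6 libraries. Its Krt8 and Krt18, keratin genes of that layer, were at 300.2 and 750.3 FPKM, and Cdx2, the defining transcription factor, was at 6.97 and listed at 0 elsewhere. Inner cell mass genes, for the inner cells of the blastocyst, summed to 76.9 FPKM in this library and 50.4 to 84.1 in the others. The correlation of this library with the others was 0.851 to 0.875 over 12272 genes, against 0.908 to 0.974 among the rest. Rn45s, the ribosomal RNA precursor, was at 1047 to 2114 FPKM in 3 libraries (FOC+K replicates 1 and 2, CROC+K replicate 1), while the other 4 held 175.4 to 265.7. Values that leave out CROC+K+M replicate 1 or stay on 1 side of the Rn45s split are given below beside the results they move most.

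Kdm4a was at 2014 and 816 FPKM in FOC+K, at 497, 4051 and 4949 in CROC+K and at 2797 and 689 in CROC+K+M. Every group held a low and a high library, and the ranges of all groups overlapped. Among the genes of the table other than small RNAs, Kdm4a ranked between place 18, in CROC+K replicate 3, and place 159, in CROC+K replicate 1, and it took 0.0864% to 0.607% of a library's FPKM. The other 7 genes together summed to only 51.9 to 69.5 FPKM. The Kdm4a level was thus 8.74 times the sum of the others in CROC+K replicate 1, 10.3 times in CROC+K+M replicate 2, 13.4 and 30.8 times in FOC+K replicates 2 and 1, 53.9 times in CROC+K+M replicate 1, and 58.3 and 78.9 times in CROC+K replicates 2 and 3. Its share of the FPKM of the 8 genes ran from 89.7% to 98.7%. FPKM divides by the annotated transcript length, so an injected mRNA that is shorter than that transcript has its level understated. A ratio between libraries of injected RNA alone is not touched by this, but a difference in FPKM is. The shares of injected and endogenous RNA in Kdm4a are not known.

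**Figure D1:**
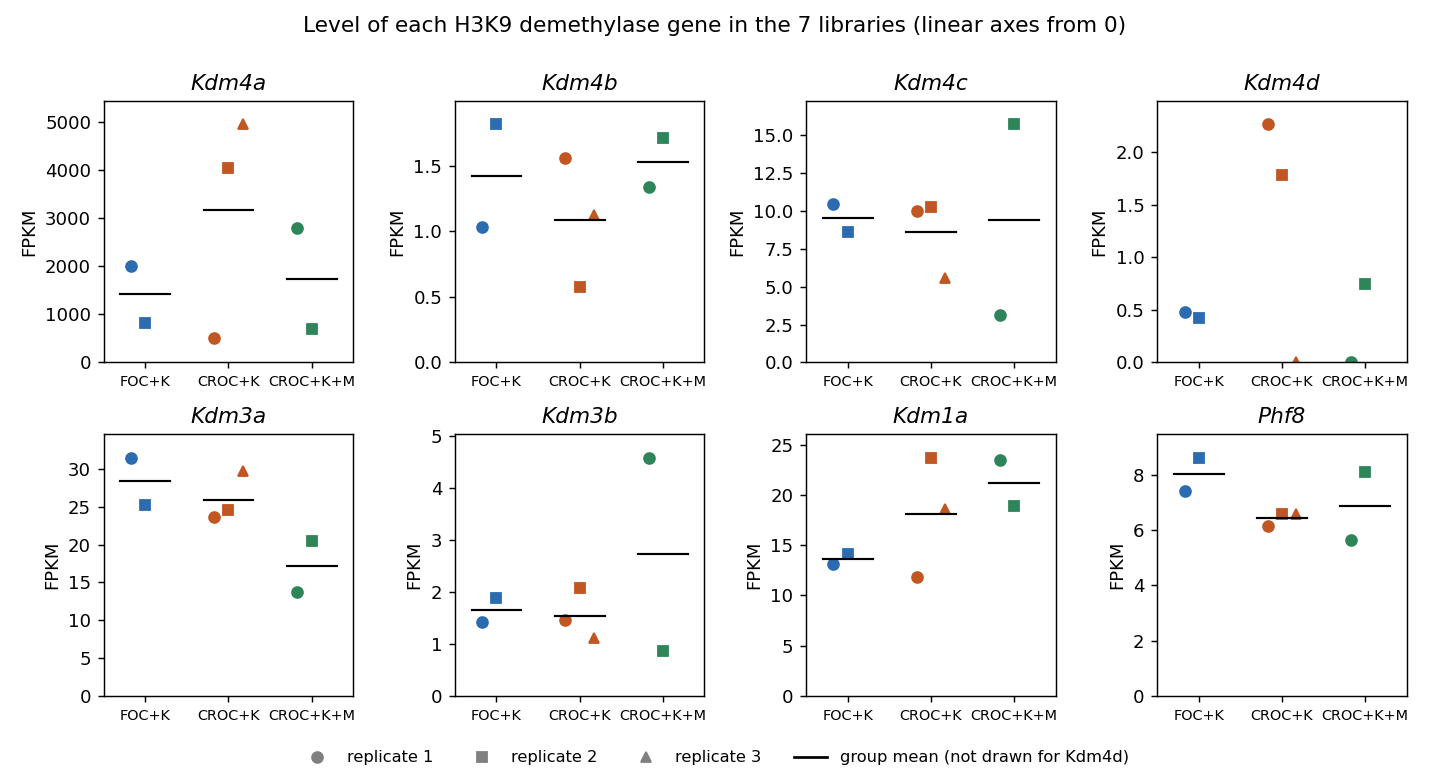
FPKM (vertical axes, linear from 0) of the 8 genes in each library, by group (horizontal axes); symbols give the replicate number and black lines the group means, left out for Kdm4d because it is listed at 0 in 2 libraries. Kdm4a spans 497 to 4949 FPKM, while no other gene exceeds 31.5.

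Of the endogenous genes Kdm3a had the highest mean level, 24.1 ± 5.89 FPKM (SD over the 7 libraries of all groups), followed by Kdm1a at 17.7 ± 4.83, Kdm4c at 9.11 ± 3.99 and Phf8 at 7.00 ± 1.07. Kdm3b (1.92 ± 1.25), Kdm4b (1.31 ± 0.434) and Kdm4d were the lowest. Between neighbours in this order only 2 steps were clear of the spread: Kdm4a lay above Kdm3a, and Phf8 above Kdm3b, with no overlap of their values over the 7 libraries. Kdm3a was above Kdm1a in 6 of 7 libraries and Kdm1a above Kdm4c in 7 of 7, though the ranges overlapped. Kdm4c was above Phf8 in 5 of 7, Kdm3b above Kdm4b in 4 of 7 and Kdm4b above Kdm4d in 5 of 7, so these neighbours did not differ beyond their spread. CROC+K+M replicate 1 was the 1 library in which Kdm1a was the highest endogenous gene.

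Within the Kdm4 family Kdm4c, which shares the domain layout of Kdm4a, had the highest level of the 3 genes that were not injected. Its level was 10.5 and 8.64 FPKM in FOC+K, 9.97, 10.2 and 5.60 in CROC+K, and 3.14 and 15.7 in CROC+K+M. The lowest and the highest of all 7 values were thus the melatonin libraries, and the groups overlapped. Kdm4b, a close relative with the same domains, was at 1.03 and 1.81 FPKM in FOC+K, at 1.56, 0.574 and 1.12 in CROC+K, and at 1.34 and 1.71 in CROC+K+M. Kdm4d, a shorter protein that lacks the PHD and Tudor domains, was at 0.483 and 0.421 FPKM in FOC+K, at 2.27, 1.79 and 0 in CROC+K, and at 0 and 0.745 in CROC+K+M. Its highest values were CROC+K replicates 1 and 2, while replicate 3 of the same group is listed at 0, where an exact 0 in this table can also be a failed estimate.

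Kdm3a, a demethylase also known as a hypoxia-induced gene, was at 31.5 and 25.3 FPKM in FOC+K, at 23.6, 24.6 and 29.7 in CROC+K, and at 13.7 and 20.5 in CROC+K+M. Both melatonin libraries lay below the other 5. Kdm3b, its paralog, was at 1.43 and 1.89 FPKM in FOC+K, at 1.45, 2.08 and 1.11 in CROC+K, and at 4.59 and 0.872 in CROC+K+M. The highest of these values belonged to CROC+K+M replicate 1, the library with trophectoderm genes, and the lowest to the other melatonin library. Without CROC+K+M replicate 1 Kdm3b did not exceed 2.08 FPKM.

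Kdm1a was at 13.1 and 14.1 FPKM in FOC+K, at 11.9, 23.7 and 18.6 in CROC+K, and at 23.5 and 18.9 in CROC+K+M. Its values followed the split by Rn45s: the 3 libraries with high Rn45s held 11.9 to 14.1 FPKM and the 4 with low Rn45s 18.6 to 23.7, with no overlap. Whether this split and the Kdm1a level have a common source was not tested. The share of all genes that separate by the split was not counted, so the separation is not shown to be particular to Kdm1a. Phf8, which binds methylated H3K4 with a PHD finger, was the steadiest of the 8 genes on a relative scale, at 7.41 and 8.61 FPKM in FOC+K, at 6.14, 6.57 and 6.56 in CROC+K, and at 5.64 and 8.10 in CROC+K+M. All 3 CROC+K values lay below both FOC+K values, and the melatonin libraries overlapped both groups. In bulk samples fewer cells with a transcript and less of it per cell cannot be told apart.

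Cryopreservation of the recipient oocyte is the difference between CROC+K and FOC+K, here called the cryopreservation comparison. None of the 8 genes passed the threshold: limma gave each an adjusted p of 0.9996 over 12272 genes. With 2 and 3 libraries and an SE of up to 1.06, this does not show that their levels were equal. The percentage of all genes called was 0%, as 0 genes passed, with 269 (2.19%) at an unadjusted p under 0.05 and 0 of the 8 genes among them. The log2 fold change of FPKM + 1 was 0.75 ± 1.06 (SE) for Kdm4a, 0.52 ± 0.57 for Kdm4d, 0.33 ± 0.35 for Kdm1a and -0.28 ± 0.31 for Phf8. For Kdm4b, Kdm4c, Kdm3a and Kdm3b it lay between -0.23 and -0.07. The median over the 8 genes was -0.10, against -0.03 over all genes. CROC+K and FOC+K values did not overlap for 1 of the 8 genes, Phf8, which was lower. Among all genes 19.1% did not overlap, with 9.66% higher and 9.47% lower in CROC+K.

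Single libraries moved several of these values. Leaving out each library in turn, the change of Kdm4a ran from 0.096 without FOC+K replicate 2 to 1.80 ± 0.72 without CROC+K replicate 1, where the adjusted p was 0.405 in limma. It was 0.15 without CROC+K replicate 3, 0.29 without CROC+K replicate 2 and 1.40 without FOC+K replicate 1. Kdm4d ran from 0.20 without CROC+K replicate 1 to 1.06 without CROC+K replicate 3, the library in which it is listed at 0 (adjusted p = 0.9999 in limma). Without CROC+K replicate 1 the change of Kdm1a was 0.59 ± 0.28 (adjusted p = 0.467). Within the 3 libraries with high Rn45s, where that library is the only CROC+K library, the difference was -1.36 for Kdm4a, -0.18 for Kdm1a, 1.17 for Kdm4d and -0.33 for Phf8. With the FPKM sums of the libraries made equal, the median of all genes moved to -0.30. The change of Kdm1a was then 0.01. Relative to that median Kdm4a stood at 0.71, Kdm4d at 0.76, Kdm1a at 0.31 and Phf8 at -0.28.

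Melatonin is the difference between the groups CROC+K+M and CROC+K, both from cryopreserved oocytes, here called the melatonin comparison. Again none of the 8 genes passed the threshold. Kdm3a had the smallest p, with a mean of 17.1 ± 4.78 FPKM (SD, n = 2) against 26.0 ± 3.26 (SD, n = 3), a log2 fold change of -0.59 ± 0.30 (SE) and an adjusted p of 0.521 in limma. Kdm4d stood at -0.66 ± 0.57, Kdm4a at -0.63 ± 1.06, Kdm4c at -0.17 ± 0.59, Kdm3b at 0.36 ± 0.51, Kdm4b at 0.30 ± 0.38, Kdm1a at 0.26 ± 0.35 and Phf8 at 0.07 ± 0.31. The median of the 8 was -0.05, against 0.06 over all genes. In limma 0 genes of the whole table passed (0%), while 1281 (10.4%) had an unadjusted p under 0.05, with 0 of the 8 among them. The libraries did not overlap for 1 of the 8, Kdm3a, which was lower. Among all genes 23.4% did not overlap, with 12.3% higher and 11.2% lower with melatonin.

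Leaving out either melatonin library turned the direction of 2 genes here. Without CROC+K+M replicate 2 these were Kdm4a, at 0.38, and Phf8, at -0.16. Without the library with trophectoderm genes they were Kdm4c and Kdm3b. Without CROC+K+M replicate 1 the change of Kdm4c was 0.84 ± 0.43 and that of Kdm3b -0.43 ± 0.45, with adjusted p = 0.654 and 0.806 in limma. Kdm3a then stood at -0.32 ± 0.33, Kdm4a at -1.64 ± 1.25, Kdm4d at -0.26 ± 0.71, Kdm1a at 0.12 ± 0.43 and Phf8 at 0.29 ± 0.35. These values rest on 1 melatonin library, which is assumed to vary like the other groups. Among the 4 low-Rn45s libraries, which are 2 CROC+K and 2 CROC+K+M, the difference was -1.69 for Kdm4a, -0.65 for Kdm3a, -0.05 for Kdm4c, 0.34 for Kdm3b and 0.0045 for Kdm1a, whose change with equal FPKM sums was 0.02. With equal FPKM sums the median of all genes was -0.14, and Kdm3a lay 0.69 below it at -0.83.

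In the third comparison, here called melatonin against fresh, CROC+K+M was set beside FOC+K, and 0 of the 8 genes passed in limma, as did 0 of all genes (0%), with 793 (6.46%) at an unadjusted p under 0.05. Kdm3a was lower, at 17.1 ± 4.78 FPKM (SD, n = 2) against 28.4 ± 4.38 (SD, n = 2), a log2 fold change of -0.72 ± 0.33 (SE) that did not pass (adjusted p = 0.757). Kdm1a was at 21.2 ± 3.21 against 13.6 ± 0.67, a change of 0.60 ± 0.38 with an adjusted p of 0.801 in limma. The remaining changes lay between -0.34 ± 0.64 for Kdm4c and 0.29 ± 0.55 for Kdm3b. The libraries did not overlap for 2 of the 8 genes, Kdm3a (lower) and Kdm1a (higher). Among all genes 41% did not overlap, with 21.3% higher and 19.8% lower in CROC+K+M. Without CROC+K+M replicate 1 the change was -0.44 ± 0.34 for Kdm3a and 0.45 ± 0.46 for Kdm1a, and the sign turned for Kdm4a (-0.90 ± 1.32), Kdm4c (0.67 ± 0.46), Kdm4d (0.27 ± 0.76), Kdm3b (-0.50 ± 0.48) and Phf8 (0.02 ± 0.37). Both FOC+K libraries had high Rn45s and both melatonin libraries low Rn45s, so the split and these groups cannot be told apart without CROC+K. With equal FPKM sums the median of all genes was -0.44, and the change of Kdm1a was 0.03, which is 0.47 above that median. This comparison shares its melatonin libraries with the previous one and its fresh libraries with the first.

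**Figure D2:**
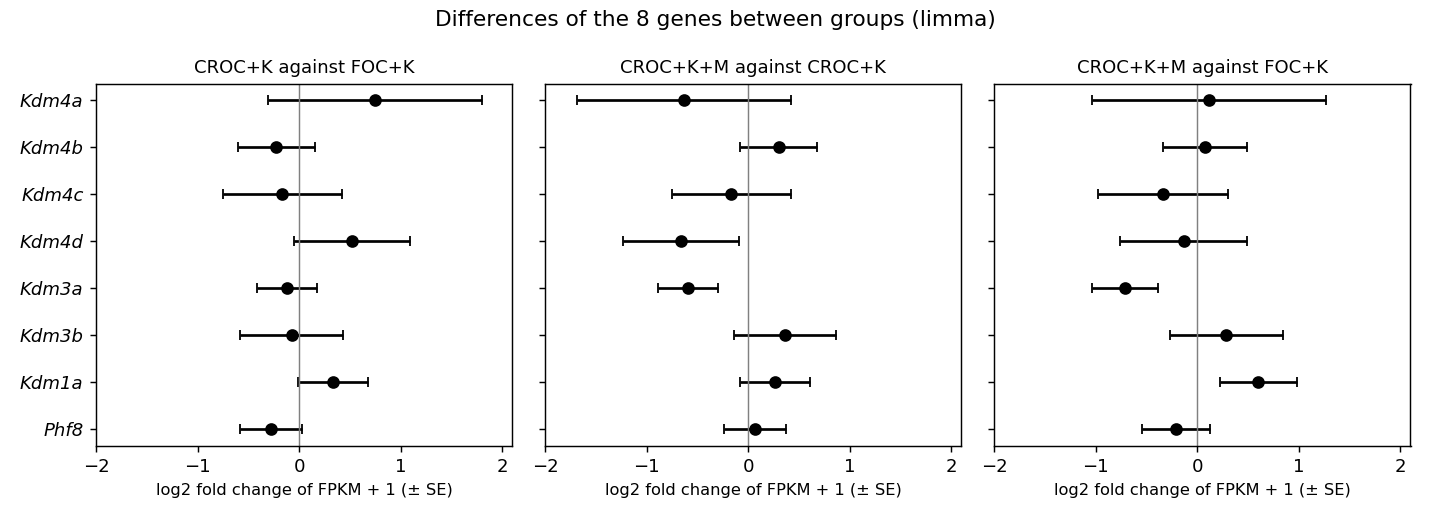
Log2 fold change of FPKM + 1 (horizontal axes; points, limma estimates; bars, ± SE) of the 8 genes in the 3 comparisons. The largest estimate in size, 0.75 for Kdm4a in the cryopreservation comparison, has an SE of 1.06, and Kdm3a stands at -0.59 and -0.72 in the comparisons with melatonin libraries.

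Because Kdm4a differed 9.95-fold between libraries, the 7 endogenous genes were set against it over the 7 libraries, on the log2(FPKM + 1) scale with two-sided exact permutation tests adjusted over the 7 relations. Kdm4b was lower where Kdm4a was higher: the 3 libraries with the least Kdm4a held 1.56, 1.71 and 1.81 FPKM of Kdm4b, and the other 4 held 0.574 to 1.34. Pearson's r was -0.78 (exact permutation p = 0.0321, adjusted p = 0.225) and Spearman's rho -0.68 (exact p = 0.110, adjusted p = 0.467). It did not pass the correction. Without the libraries farthest from the median of Kdm4a, CROC+K replicate 1 and CROC+K+M replicate 2, r was -0.73 over the 5 that remain, and without CROC+K+M replicate 1 it was -0.82.

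Kdm1a pointed the other way, with r = 0.65 (exact permutation p = 0.111, adjusted p = 0.389) and rho = 0.57 (exact permutation p = 0.200, adjusted p = 0.467), and r = 0.67 over the 5 libraries. With equal FPKM sums its r was 0.23, and with the group means removed 0.83. No p is given with the group means removed. The deviations within a group are then tied to each other and cannot be permuted freely. For Kdm4c r was -0.53 and rho -0.43, for Kdm4d -0.44 and -0.58, and for Phf8 -0.42 and -0.25, with adjusted p of r = 0.479 for each in the exact permutation test and adjusted p of rho = 0.619, 0.467 and 0.662. With the group means removed the r of Kdm4d was -0.68. Over the 5 libraries r was -0.27 for Kdm4c, 0.03 for Kdm4d and -0.77 for Phf8. For Kdm3a r was 0.09 and rho 0.32, with adjusted exact permutation p = 0.854 and 0.662, and -0.02 over the 5 libraries. Without CROC+K+M replicate 1 the r of Kdm3a was 0.61 (n = 6, exact permutation p = 0.197, adjusted p = 0.460). For Kdm3b r was 0.31 and rho 0.21, with adjusted exact permutation p = 0.659 and 0.662, and -0.07 over the 5 libraries. The Rn45s split leaves 3 and 4 libraries, too few for a correlation within either side.

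**Figure D3:**
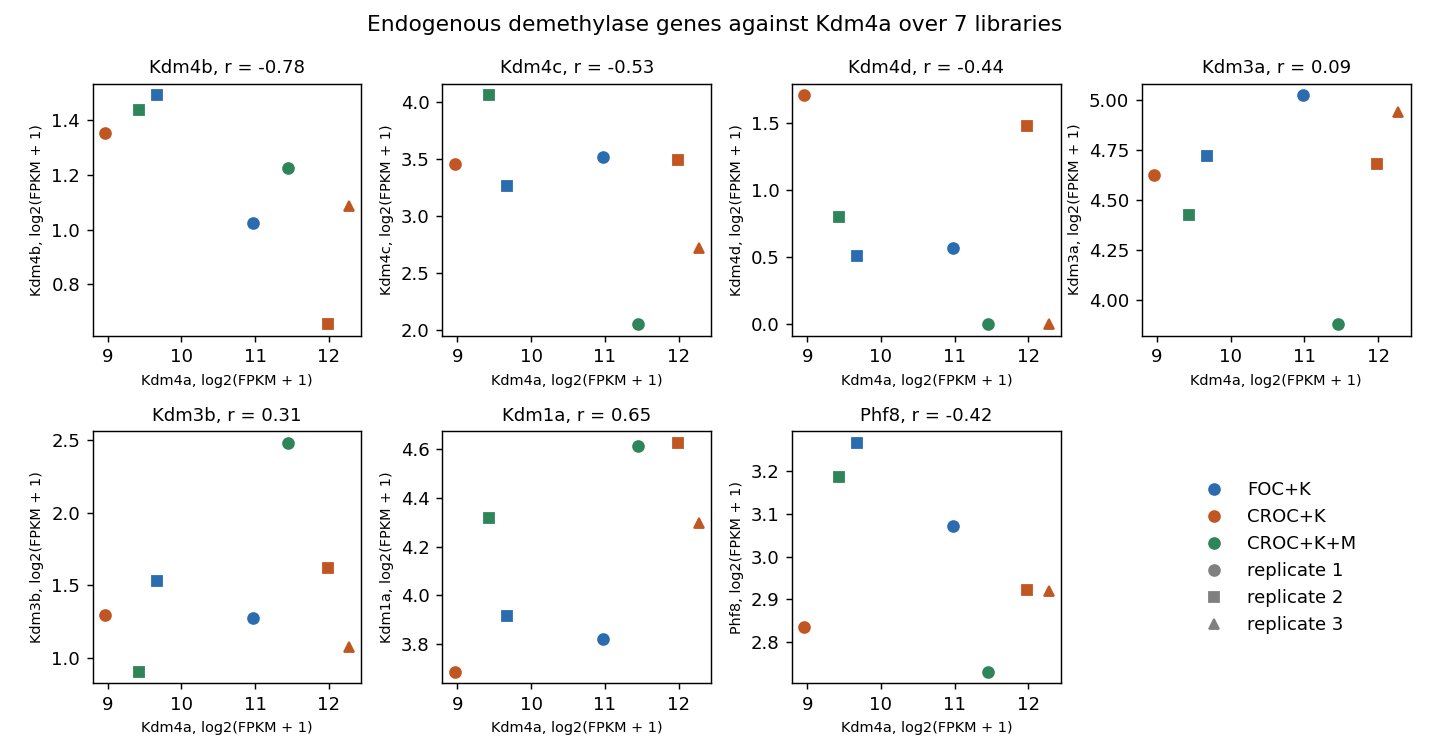
Level of each endogenous gene (vertical axes) against Kdm4a (horizontal axes), both as log2(FPKM + 1), in the 7 libraries; colours give the group and symbols the replicate. Kdm4b has r = -0.78 and Kdm1a r = 0.65 with Kdm4a, and neither relation passed the correction over 7 relations.

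The genes most like Kdm4a were sought among 4752 tested genes with a mean of at least 10 FPKM, by Pearson's r over the 7 libraries, as a description with no test. They were Usp17la (r = 0.993), a deubiquitinase gene of a multicopy family, Ddit4l (0.990), a relative of a stress-induced inhibitor of mTOR signalling, Zscan4c (0.987), a gene of the 2-cell stage with close copies, Pex16 (0.984), a peroxisome biogenesis gene, and Nudt22 (0.978). Zscan4c was at 1.49 FPKM in CROC+K replicate 1, where Kdm4a was lowest, and at 87.6 in CROC+K replicate 3, where Kdm4a was highest. Ddit4l was at 6.65 and 117.4 in the same libraries. Because their close copies share reads, the levels of Usp17la and Zscan4c are uncertain.

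The genes most opposed to Kdm4a were Trappc13 (r = -0.993), a vesicle tethering complex gene, Fam204a (-0.983), Pla2g1b (-0.982), a secreted phospholipase gene, Ccl25 (-0.981), a chemokine gene, and Cdca2 (-0.975), a regulator of protein phosphatase on mitotic chromosomes. Trappc13 was at 66.9 FPKM in CROC+K replicate 1 and at 25.3 in CROC+K replicate 3. Genes most like or most opposed to Kdm4a were picked as extremes over only 7 libraries. Their r is thus partly a result of the choice. Of 17 markers of the transient 2-cell stage 16 had a row, and they summed to 168.3 FPKM in CROC+K replicate 1, 186.9 in CROC+K+M replicate 2, 216.5 in FOC+K replicate 2, 419.5 in CROC+K+M replicate 1, 509.2 in FOC+K replicate 1, and 861.2 and 1219 in CROC+K replicates 2 and 3. The sum was higher in FOC+K replicate 1 than in CROC+K+M replicate 1, the reverse of Kdm4a. Of these markers Tcstv1 and Tcstv3 are listed at 0 in all 7 libraries. Usp17la and Zscan4c are also among them and were picked above for their likeness to Kdm4a. The sums are therefore not separate from that choice. Oocyte genes summed to 20472 and 16709 FPKM in FOC+K, to 14741, 34163 and 37336 in CROC+K and to 23120 and 26146 in CROC+K+M. CROC+K+M replicate 2, low in Kdm4a, had a higher oocyte sum than CROC+K+M replicate 1 and FOC+K replicate 1, which held more Kdm4a. Whether the embryos of the libraries differed in stage was not tested.

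Among the endogenous genes the closest patterns over the 7 libraries were Usp1 (r = 0.988) for Kdm3a, Phf13 (0.979) for Kdm1a, Atp5g2 (0.978) for Kdm3b, Ciart (0.973) for Kdm4d, Ccdc101 (0.966) for Kdm4b, Nus1 (0.959) for Kdm4c and Tmpo (0.940) for Phf8. The next in order were Usp15 (0.977), Pfdn2 (0.979), H1f0 (0.969), Ttc9c (0.953), Fam76b (0.962), Tmem190 (0.954) and Gda (0.925), for the same genes in turn. Each was picked as the highest among 4752 or 4753 genes over only 7 libraries, so a high r is partly a result of the choice. These likenesses were not tested, and those of Kdm4d rest on a gene listed at 0 in 2 libraries. Atp5g2, an ATP synthase subunit gene, was at 131.5 FPKM in CROC+K+M replicate 1 and at 11.7 to 25.8 elsewhere. Without that library, which holds the trophectoderm genes, the r of Atp5g2 with Kdm3b was 0.953, and that of H1f0 0.859. Usp1, a deubiquitinase gene of DNA repair, was at 90.1 FPKM in CROC+K+M replicate 1 and at 162.3 in FOC+K replicate 1, the libraries with the lowest and the highest Kdm3a.

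The other histone lysine demethylases form a list of 17 genes, all with a row, of which 14 passed the filter. Kdm1b, the LSD1 relative needed in the oocyte, had the highest mean level (32.3 FPKM, range 27.5 to 39.9). This mean was above that of each endogenous member described here, though in CROC+K replicate 3 Kdm3a exceeded Kdm1b (29.7 against 28.5 FPKM). The range of Kdm1b also overlapped that of Kdm7a, which had a mean of 31.6. Kdm7a, a relative of Phf8, was at 24.8 to 35.4, Kdm5b, an H3K4 demethylase gene, at 19.1 to 38.0, Riox2 (in the table as Mina) at 15.2 to 44.3 and Kdm6a, an X-linked H3K27 demethylase gene, at 15.3 to 23.6. Jmjd1c, a relative of Kdm3a, was at 0.566 to 2.49, and Phf2, another JmjC gene of the Phf8 group, at 0.427 to 1.60. The Y-linked Kdm5d and Uty are listed at 0 in all 7 libraries.

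No gene of this list passed in limma in any of the 3 comparisons, over all 12272 genes or at an unadjusted p under 0.05. In the cryopreservation comparison 2 of 14 had a higher and 12 a lower mean on the log2 scale (median -0.17, all genes -0.03), and 2 of 14 did not overlap between groups, against 19.1% of all genes. These were Kdm1b, at 38.3 and 39.9 FPKM in FOC+K against 27.5, 30.9 and 28.5 in CROC+K (log2 change -0.42 ± 0.25 SE), and Kdm6a, at 20.3 and 23.6 against 16.3, 15.3 and 17.2 (-0.41 ± 0.27). Mina stood at -0.70 ± 0.47. Within the high-Rn45s libraries 4 were higher and 10 lower (median -0.23). In the melatonin comparison 10 had a higher and 4 a lower mean (median 0.11, all genes 0.06), with 2410016O06Rik (Riox1) at 0.70 ± 0.34, Jmjd1c at 0.50 ± 0.40 and Mina at 0.50 ± 0.47. In it 1 of 14 did not overlap, against 23.4% of all genes. Leaving out CROC+K+M replicate 1 gave a median of 0.23. Within the low-Rn45s libraries it was -0.011, with 7 higher and 7 lower. For melatonin against fresh 4 were higher and 10 lower (median -0.16, all genes 0.04), with 2410016O06Rik at 0.50 ± 0.37, Kdm2a, an H3K36 demethylase gene, at -0.45 ± 0.38 and Kdm1b at -0.35 ± 0.27. Here 7 of 14 did not overlap, against 41% of all genes, and leaving out CROC+K+M replicate 1 gave a median of -0.074.

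**Figure D4:**
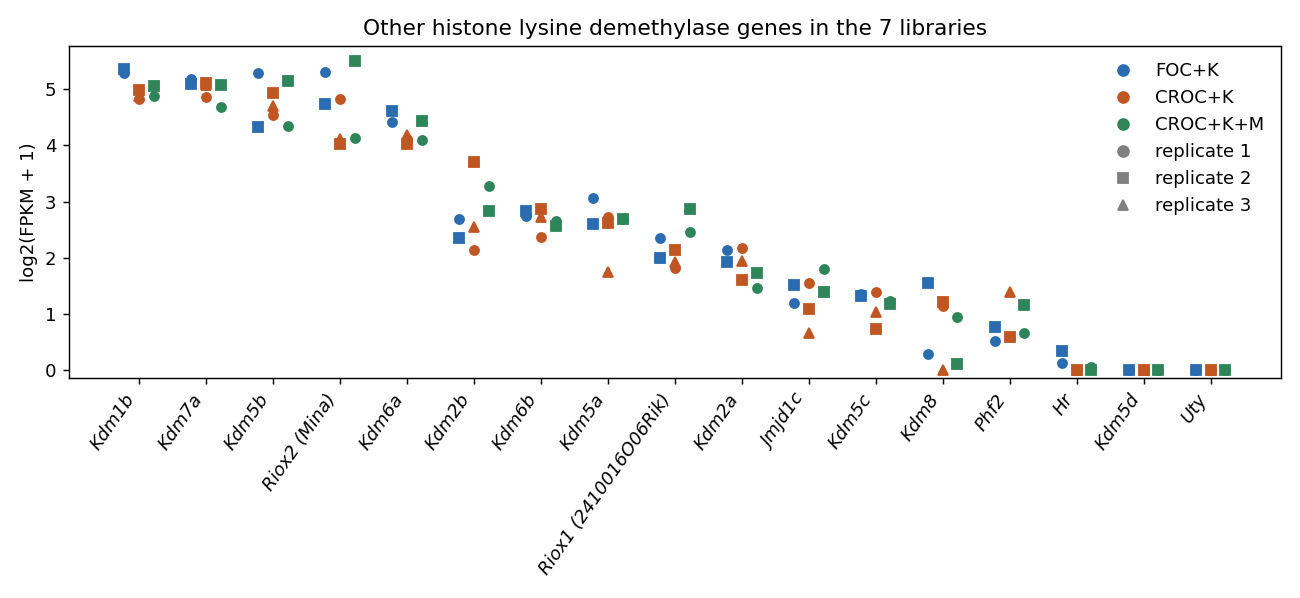
Level as log2(FPKM + 1) (vertical axis) of the 17 other histone lysine demethylase genes (horizontal axis, by falling mean level) in the 7 libraries, with groups by colour and replicates by symbol. Kdm1b in FOC+K (38.3 and 39.9 FPKM) lies above its values in the other 5 libraries, and Kdm5d and Uty are at 0 throughout.

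The partners of Kdm1a, the CoREST complex and related corepressor genes, form a list of 15 genes, all tested, of which 0 passed in limma in any comparison. Rcor1, the CoREST scaffold, was at 37.3 and 39.7 FPKM in FOC+K, at 43.2, 34.1 and 28.0 in CROC+K, and at 21.8 and 29.3 in CROC+K+M. Its melatonin values lay below both fresh ones and overlapped CROC+K, and its 3 values in libraries with high Rn45s lay above the 4 in libraries with low Rn45s. Hdac1, the deacetylase of the complex, was at 80.8 and 40.4, at 55.2, 102.2 and 106.4, and at 71.3 and 60.7 in the same order, and all groups overlapped. The median of the list was -0.11 for cryopreservation, -0.26 for melatonin and -0.31 for melatonin against fresh, against -0.03, 0.06 and 0.04 over all genes. In each comparison 5 of the 15 had a higher and 10 a lower mean, and 2, 0 and 8 did not overlap between groups, against 19.1%, 23.4% and 41% of all genes. With CROC+K+M replicate 1 left out, the list's median was -0.13 for melatonin and -0.29 for melatonin against fresh. It was -0.069 for cryopreservation within the high-Rn45s libraries and -0.28 for melatonin within the low ones. The smallest unadjusted p was that of Ctbp1, a corepressor gene, at 5.14 and 3.65 FPKM in CROC+K+M against 1.56 and 1.24 in FOC+K (log2 change 1.16 ± 0.46 SE, adjusted p = 0.757 in limma). Ctbp1 also separated by the Rn45s split, at 1.24 to 1.56 FPKM in the 3 libraries with high Rn45s and at 2.46 to 5.14 in the 4 with low Rn45s. Hmg20b, a CoREST subunit gene, stood at -0.54 ± 0.34 for cryopreservation and at -0.82 ± 0.37 for melatonin against fresh. Phf21a, which encodes a reader of unmethylated H3K4 in the complex, stood at -0.64 ± 0.43 for cryopreservation, and Hdac2, the paralog of Hdac1, at 0.30 ± 0.32 for melatonin. Phf21a also separated by the Rn45s split. It was at 3.86 to 4.58 FPKM in the libraries with high Rn45s and at 1.21 to 2.47 in the others.

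The enzymes and proteins on the other side of the mark, H3K9 methyltransferases and readers of the HP1 kind, form a list of 12 tested genes, of which 0 passed in limma in any comparison. In the cryopreservation comparison 9 had a higher and 3 a lower mean (median 0.19, all genes -0.03). In the melatonin comparison 3 were higher and 9 lower (median -0.08, all genes 0.06), and for melatonin against fresh 6 were higher and 6 lower (median 0.01, all genes 0.04). Of the 12 genes 4, 2 and 6 did not overlap, against 19.1%, 23.4% and 41% of all genes. With CROC+K+M replicate 1 left out, the list's median was -0.0018 for melatonin, with 6 higher and 6 lower, and 0.062 for melatonin against fresh. It was 0.026 for cryopreservation within the high-Rn45s libraries and -0.25 for melatonin within the low ones. Cbx3, which encodes HP1 gamma, was at 19.3 and 13.9 FPKM in FOC+K, at 24.9, 21.9 and 28.2 in CROC+K, and at 17.9 and 11.6 in CROC+K+M. All CROC+K values lay above those of both other groups, with log2 changes of 0.58 ± 0.32 (SE) for cryopreservation and -0.75 ± 0.32 for melatonin, and adjusted p = 0.9996 and 0.470 in limma. Cbx5, the gene of HP1 alpha, stood at -0.41 ± 0.35 for cryopreservation, and Uhrf1, which reads H3K9 methylation and is needed to keep DNA methylation, at -0.41 ± 0.27 for melatonin. For melatonin against fresh, Trim28, a corepressor gene that recruits Setdb1, stood at 0.85 ± 0.54, and Atf7ip, a gene of the same pathway, at -0.52 ± 0.49. Both genes also separated by the Rn45s split. Trim28 was at 13.8 to 24.9 FPKM in the libraries with high Rn45s and at 37.6 to 53.9 in the others, and Atf7ip at 5.95 to 8.23 and at 2.81 to 5.59. The part of the split in the values of Rcor1, Ctbp1, Phf21a, Trim28 and Atf7ip was not tested. How many of all genes separate by the split was not counted, so it is not shown to be particular to these genes.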

How the data were processed

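RNA of 7 libraries of pooled SCNT embryos (RNA integrity number above 7.0) was sequenced, and the authors deposited 1 table of FPKM values with 24319 rows. Per the submitters' processing notes, the tools were STAR 2.5.2b, Cufflinks 2.2.1, R 3.3.2 and Cuffnorm, on mouse build mm9. Annotation and scaling between libraries: not given in the sources used here. Cufflinks shares fragments between similar genes by a model. Groups came from the sample titles. No 2 libraries held identical values.

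FPKM were used as deposited, as log2(FPKM + 1), a scale that understates changes of low genes. Small RNA and ribosomal precursor genes (1296 rows) were excluded, and the 12272 genes with an FPKM of at least 1 in 2 libraries were tested with limma 3.58.1 (intensity trend, group as the only term, all 7 libraries, two-sided) in R 4.3.3. Adjusted p-values follow Benjamini and Hochberg over all genes tested, with a threshold of 0.05. The fit was also run on simulated data, with an outcome not reported here. The simulated noise was independent between libraries, with no library that stands apart and no Rn45s split. Python 3.11.15, scipy 1.17.1 and Biopython 1.88 were used for the rest. The fragment step came from 1903 genes with a single transcript over 1500 bases. Sequences are from GENCODE M21 (GRCm38) and no coordinates were carried between builds.

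The 8 genes and the lists were chosen with earlier results of these data known. Named besides them are the 3 genes of smallest unadjusted p in the demethylase and CoREST lists and 2 in the methyltransferase list per comparison, with a mean FPKM of at least 1, and the genes most like each of the 8, clone names left out. Kdm5b, Kdm7a and Phf2 were chosen after their values were seen. Alternatives were other filters, pseudocounts and scalings, array weights, a replicate block, a term for the Rn45s split and leaving out each library. 2 list genes were found under older symbols, by RefSeq synonyms.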

Additional observations from a re-analysis of the deposited data

How the results depend on the processing

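None of the 8 genes passed the threshold of limma under an alternative in which it was tested (Kdm4b, Kdm4d and Kdm3b were not tested at an FPKM of at least 5 in 2 libraries), with a smallest adjusted p of 0.214 (Kdm4c, melatonin against fresh, without CROC+K+M replicate 2). The cause of the reversed signs below was not tested, except where a setting changes the libraries compared, as leaving out a library does. With the Rn45s split as a term, CROC+K is the only group on both sides. The cryopreservation change was then -1.36 (Kdm4a), 0.097 (Kdm4b), 0.063 (Kdm4c) and -0.18 (Kdm1a). These values equal the differences within the high-Rn45s libraries, where CROC+K replicate 1 is the only CROC+K library. The change for melatonin against fresh was -3.05 (Kdm4a), 0.012 (Kdm4c), 0.83 (Kdm4d) and -0.18 (Kdm1a). It joins both sides of the split through CROC+K, so it rests on that library too. With equal FPKM sums Phf8 stood at -0.15 in the melatonin comparison, and Kdm4a at -0.48, Kdm4b at -0.27 and Kdm3b at -0.14 in melatonin against fresh, while the r of Kdm3a with Kdm4a was -0.068. With quantile normalization Kdm3b stood at 0.053 for cryopreservation, Phf8 at -0.071 for melatonin, and Kdm4a at -0.63 and Kdm4d at 0.095 for melatonin against fresh. A pseudocount of 0.1 and array weights reversed no member's sign. Other filters and fits of only 2 groups cannot change a difference of group means. Within the low-Rn45s libraries the median of the other demethylases for melatonin was -0.011. This split, and leaving out CROC+K+M replicate 1, were applied to the lists and to the like genes after the data were seen.

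Leaving out each library in turn gave these ranges. For cryopreservation they were 0.096 to 1.80 (Kdm4a), 0.20 to 1.06 (Kdm4d), 0.12 to 0.59 (Kdm1a), -0.46 to 0.0085 (Kdm4b), -0.30 to 0.081 (Kdm4c), -0.28 to 0.029 (Kdm3a), -0.22 to 0.052 (Kdm3b) and -0.37 to -0.18 (Phf8). For melatonin they were -1.69 to 0.38 (Kdm4a), -1.19 to -0.26 (Kdm4d), -0.86 to -0.32 (Kdm3a), 0.11 to 0.46 (Kdm4b), 0.0045 to 0.48 (Kdm1a), -1.17 to 0.84 (Kdm4c), -0.43 to 1.15 (Kdm3b) and -0.16 to 0.29 (Phf8). For melatonin against fresh they were -0.90 to 1.12 (Kdm4a), -0.16 to 0.31 (Kdm4b), -1.34 to 0.67 (Kdm4c), -0.54 to 0.27 (Kdm4d), -0.99 to -0.44 (Kdm3a), 0.45 to 0.75 (Kdm1a), -0.50 to 1.08 (Kdm3b) and -0.44 to 0.018 (Phf8). The number of genes past the threshold was 0 to 658 for melatonin and 0 to 546 for melatonin against fresh. The upper counts come without CROC+K+M replicate 2, when the library with trophectoderm genes stands alone for melatonin.

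Only CROC+K has a replicate 3, so the replicate block takes up that library. With the block the cryopreservation change was 0.15 (Kdm4a), 1.06 (Kdm4d), 0.081 (Kdm4c) and 0.052 (Kdm3b). The melatonin change was -0.033 (Kdm4a) and -1.19 (Kdm4d, adjusted p = 0.793 in limma). These changes equal those without CROC+K replicate 3, so they are no separate result. With the block the number of genes past the threshold was 0 in each comparison. Genes at an unadjusted p under 0.05 numbered 97, 706 and 543, against 269, 1281 and 793 without the block. The deviations of same-numbered libraries from their group means correlated at -0.457 to 0.0297, and FOC+K replicate 1 correlated best with CROC+K replicate 3. In a group of 2 libraries the deviations mirror each other. These values therefore cannot decide whether same-numbered libraries belong together.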
